A study of Mus musculus with 12 samples.

Results

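Acod1 and the Mincle family of myeloid lectin receptors were followed in cultured mouse cardiac myofibroblasts given soluble CD74 and macrophage migration inhibitory factor. The set was named by gene symbol and holds 5 genes, Acod1, Clec4e, Clec4d, Clec4n and Clec7a. Of these, 4 had a probe set with that symbol among the 19505 genes measured, 1 probe set each, and Clec7a (Dectin-1) had none in the probe table and was not analysed here. Acod1 and Clec4e were selected on their measured log2 difference with MIF in these arrays, alone and with sCD74. Their values in any comparison that involves MIF are therefore given as a description, with no test. Clec4d, Clec4n and Clec7a entered by family.

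The series holds 12 one-colour microarrays, 1 per RNA sample, in 4 groups of 3. The groups were 40 nM sCD74 with 8 nM MIF, 8 nM MIF alone, 40 nM sCD74 alone, and carrier. All cultures were exposed for 8 h and came from the hearts of wild-type C57BL/6J mice taken 1 to 7 days after birth. The fibroblasts had been kept in culture for 10 to 14 days, in which they became myofibroblasts. Each group has replicates 1, 2 and 3, and arrays with the same number have a code in common in their titles. The labels do not say whether replicates came from separate animals or whether hearts were pooled, so p-values measure the spread between these samples, which may be technical.

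Acod1 encodes the mitochondrial enzyme that turns cis-aconitate, an intermediate of the tricarboxylic acid cycle, into itaconate, and activated macrophages are known to induce it strongly. Clec4e (Mincle), Clec4d (MCL) and Clec4n (Dectin-2) are C-type lectin receptors of myeloid cells that bind microbial glycolipids and mannans. Mincle also binds a protein released by dying cells. The receptors signal through the adaptor Fcer1g and the kinase Syk to the Card9, Bcl10 and Malt1 complex and on to NF-kappaB. MIF is a cytokine whose receptor is CD74, and sCD74 is a soluble form of that receptor. In the RefSeq gene order Clec4n, Clec4d and Clec4e are neighbours on mouse chromosome 6, and Clec7a lies on the same chromosome between Clec1a and Olr1. Acod1 lies on chromosome 14.

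Because Acod1 and Clec4e were picked together and the lectin genes are neighbours, the start regions of Acod1, Clec4e and Clec4d are shown, 250 bases before to 50 after each RefSeq start in the assembly GRCm38.p6, read 5′ to 3′ on the strand of the gene. They are chr14:103046762-103047061 on the plus strand, chr6:123289822-123290121 on the minus strand and chr6:123261857-123262156 on the plus strand. Capitals mark the NF-kappaB-like word GGAAATTC and the PU.1 core GAGGAA on either strand.
Acod1: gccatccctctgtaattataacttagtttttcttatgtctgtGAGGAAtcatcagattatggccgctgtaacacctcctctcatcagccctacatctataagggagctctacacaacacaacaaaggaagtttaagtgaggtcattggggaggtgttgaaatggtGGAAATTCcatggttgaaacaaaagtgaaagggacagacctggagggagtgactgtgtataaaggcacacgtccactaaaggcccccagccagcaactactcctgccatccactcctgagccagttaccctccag
Clec4e: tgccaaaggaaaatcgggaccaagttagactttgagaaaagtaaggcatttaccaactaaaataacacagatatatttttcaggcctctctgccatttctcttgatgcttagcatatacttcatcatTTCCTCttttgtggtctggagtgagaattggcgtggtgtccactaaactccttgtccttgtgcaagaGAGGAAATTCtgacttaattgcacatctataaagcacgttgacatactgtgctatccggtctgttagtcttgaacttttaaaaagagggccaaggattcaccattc
Clec4d: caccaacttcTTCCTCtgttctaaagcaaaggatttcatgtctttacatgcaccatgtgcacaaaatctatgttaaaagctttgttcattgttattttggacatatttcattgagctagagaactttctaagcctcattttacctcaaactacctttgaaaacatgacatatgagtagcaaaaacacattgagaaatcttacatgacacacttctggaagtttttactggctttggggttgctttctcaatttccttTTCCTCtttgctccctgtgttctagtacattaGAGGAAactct

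GGAAATTC stood at position -85 from the start of Acod1 and at -54 from that of Clec4e, where it overlaps a GAGGAA at -56. It was not in the Clec4d window. This word occurred in the start regions of 1.04% of 27025 genes, and it was chosen with these sequences in view, so it is a description. GAGGAA, the core bound by the myeloid factor PU.1, was present in all 3 windows and in 31.3% of genes. The C/EBP word TTNNGNAA was in the windows of Clec4e and Clec4d and in 44.1% of genes. The core of the interferon-stimulated response element was in that of Clec4d and in 3.99% of genes. The AP-1 word TGANTCA (8.97% of genes) and the longer NF-kappaB consensus (5.14% of genes) had no match in these 3 windows. All words were searched on both strands.

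Values below are the deposited log2 values. They ran from 3.08 to 18.39 over the table, above what a 16-bit scanner gives, so the size of a log2 difference depends on the scale of that table. Background was taken as the median of the 5222 negative control probe sets of the same array, which lay between 7.37 and 7.90, and the gap between positive and negative control medians was 3.67 to 4.25. The fibroblast label fitted its markers: the mean level of 13 measured fibroblast and myofibroblast genes lay between 15.67 and 15.96 on the 12 arrays, and none of the 13 had a mean below background. The cultures also carried macrophage transcripts, with 20 of 22 measured macrophage markers above background. The markers with the highest means were Lyz2 (lysozyme, 17.22), Mrc1 (mannose receptor, 16.52), Fcgr3 (an Fc receptor, 15.88) and Spi1 (PU.1, 15.71). Cd163 was above background on 0 of 12 arrays and Lyve1 on 5. In bulk RNA fewer macrophages and less RNA per macrophage cannot be told apart. Of 13 measured neutrophil and monocyte markers, 10 had means below background, among them S100a8, Ly6c2 and Ccr2, which exceeded it on no array. Of the other marker lists, 6 of 7 dendritic, 5 of 6 lymphocyte, 1 of 10 endothelial and 2 of 8 cardiomyocyte genes lay below background.

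Clec4e, the receptor known as Mincle, was higher with sCD74 and MIF together than with carrier on every array. With both proteins its log2 values were 10.66, 12.04 and 11.83 for replicates 1, 2 and 3. With MIF alone they were 9.26, 10.70 and 11.64. With sCD74 alone they were 8.98, 10.61 and 9.91, and with carrier 9.31, 10.07 and 9.94. The lowest co-treated array lay above the highest carrier array, whereas the MIF and the sCD74 arrays both overlapped carrier. All 12 arrays were above the negative control median and 3 were above its 95th percentile, namely replicates 2 and 3 with both proteins and replicate 3 with MIF.

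The group means of Clec4e ran in the order 11.51 ± 0.74 with both proteins, 10.53 ± 1.20 with MIF, 9.83 ± 0.81 with sCD74 and 9.77 ± 0.40 with carrier (SD, n = 3 each). Neighbours in that order overlapped. The co-treated arrays were all above the sCD74 arrays as well, the lowest at 10.66 and the highest sCD74 array at 10.61. Over all genes, 4.52% had the 3 co-treated arrays above the 3 carrier arrays and 3.95% had them above the 3 sCD74 arrays, and since Clec4e was chosen for this pattern nothing is read from its place among them. The fitted log2 difference of co-treatment from carrier was 1.74 ± 0.55 (SE), and that of MIF alone was 0.76 ± 0.55.

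Within replicate numbers the co-treated array exceeded its carrier array by 1.35, 1.98 and 1.89 on the log2 scale. Of all genes, 14.2% were higher in 3 of 3 such pairs. MIF alone differed from carrier by -0.05, 0.63 and 1.70. Replicate 3 gave most of the MIF difference, which was 0.21 without that array and 1.39 without MIF replicate 1. Adding MIF to sCD74 gave differences of 1.68, 1.44 and 1.92, and adding sCD74 to MIF gave 1.40, 1.35 and 0.19. Over all genes, 14.8% were higher in 3 of 3 pairs in the first of these steps and 12.2% in the second.

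For Clec4e, sCD74 alone gave no difference from carrier that passed the test, in a comparison that holds no MIF array but shares its carrier arrays with those on which the gene was selected. Its differences within replicate numbers were -0.33, 0.54 and -0.02, and limma's fitted difference was 0.06 ± 0.55 (SE, adjusted p = 1.00). Averaged over cultures with and without MIF, the difference with sCD74 was 0.52 ± 0.39 (SE). The departure of co-treatment from the sum of the single treatments was 0.92 ± 0.78 (SE). Both contain arrays with MIF and are given with no test.

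**Figure D1:**
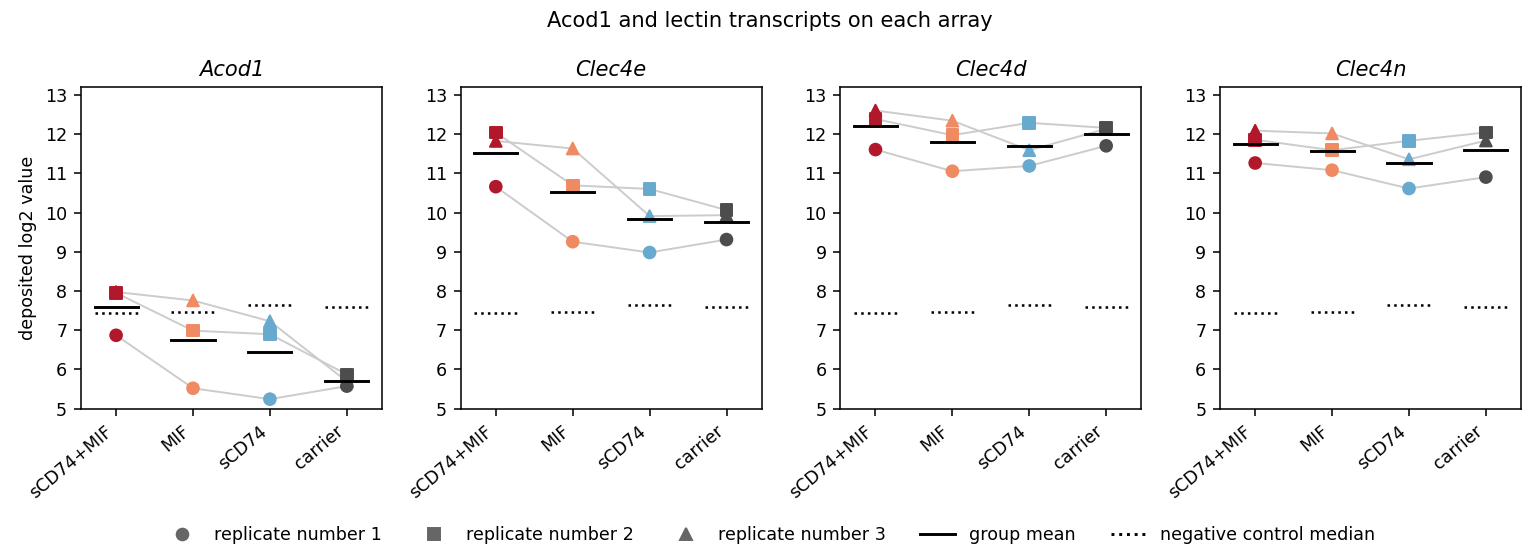
Deposited log2 values (vertical axis) of Acod1, Clec4e, Clec4d and Clec4n on each of the 12 arrays, by group, with the mean of 3 arrays as a bar, the group's mean negative control median as a dotted line, and grey lines joining arrays of a replicate number. Clec4e reached 12.04 with both proteins and at most 10.07 with carrier, while the points of Clec4d and Clec4n overlapped between all groups and most Acod1 points lay below the dotted line.

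Acod1 was near or below background throughout. Its log2 values were 6.87, 7.95 and 7.98 with both proteins and 5.52, 6.99 and 7.76 with MIF. They were 5.24, 6.90 and 7.23 with sCD74 and 5.58, 5.88 and 5.70 with carrier. The 3 arrays above their own negative control median were replicates 2 and 3 with both proteins and replicate 3 with MIF, the same arrays on which Clec4e passed the 95th percentile. None of the 12 passed the 95th percentile for Acod1.

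All 3 co-treated arrays of Acod1 lay above all 3 carrier arrays, the pattern it was chosen by and one that 4.52% of all genes had. Its group means were 7.60 ± 0.63 with both proteins, 6.76 ± 1.14 with MIF, 6.46 ± 1.07 with sCD74 and 5.72 ± 0.15 with carrier (SD, n = 3 each), and each neighbour in that order overlapped the next. No carrier array was above background, and with both proteins 2 of 3 were, so the size of the difference is not known. With the carrier arrays set to their background, the mean with both proteins was 1.01-fold over carrier. That is not a lower bound, because co-treated replicate 1 was itself below background. On its own array Acod1 stood at percentiles 39.0, 61.0 and 60.5 of the negative controls with both proteins, against percentiles 14.1, 20.5 and 14.6 with carrier. For sCD74 alone against carrier, where both groups were below background and a test was open, limma's adjusted p was 1.00.

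Clec4d and Clec4n, the other 2 receptors of the family, had ranges that overlapped between all groups. Clec4d, known as MCL and a partner of Mincle, had log2 values of 11.61, 12.39 and 12.61 with both proteins. They were 11.06, 11.98 and 12.35 with MIF, 11.19, 12.29 and 11.59 with sCD74, and 11.71, 12.16 and 12.14 with carrier. Replicate 1 was the lowest array in each of the 4 groups.

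The means of Clec4d were 12.20 ± 0.52 with both proteins, 11.79 ± 0.66 with MIF, 11.69 ± 0.56 with sCD74 and 12.00 ± 0.26 with carrier (SD, n = 3 each). By level, carrier came second, and no neighbours in level differed beyond their spread. In limma's fit, where 0 of 19505 genes (0%) passed and 780 had an unadjusted p under 0.05, co-treatment differed from carrier by 0.20 ± 0.35 (SE, adjusted p = 0.999). The difference was -0.21 ± 0.35 with MIF (adjusted p = 1.00) and -0.31 ± 0.35 with sCD74 (adjusted p = 1.00). There too 0 genes passed, and 653 with MIF and 350 with sCD74 had an unadjusted p under 0.05.

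The replicate number as a block, which pairs the arrays, changed no call of Clec4d or Clec4n. For co-treatment against carrier it gave a smaller SE, 0.19 for Clec4d and 0.16 for Clec4n. The blocked fit called 0 genes for each treatment against carrier and 1 (0.00513%), Birc3, for all MIF cultures against all cultures without MIF. With an intensity trend and robust variance added to the block it called 6 genes for co-treatment (0.0308%), 1 for MIF (0.00513%) and 3 for MIF cultures (0.0154%), all of them higher. Acod1 and Clec4e are among the 6 and Clec4e among the 3. These are the contrasts on which both were selected, so nothing is read from their presence there. Birc3, an inhibitor of apoptosis, is in all 3 sets.

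Clec4n, known as Dectin-2, had log2 values of 11.27, 11.86 and 12.09 with both proteins. They were 11.08, 11.59 and 12.02 with MIF, 10.62, 11.83 and 11.36 with sCD74, and 10.91, 12.05 and 11.84 with carrier. Here too replicate 1 was lowest in each group. The means were 11.74 ± 0.43, 11.57 ± 0.47, 11.27 ± 0.61 and 11.60 ± 0.61 in that order of groups (SD, n = 3 each), again with carrier second by level and no neighbours apart beyond their spread. The differences from carrier were 0.14 ± 0.36 with both proteins (SE, limma adjusted p = 0.999), -0.03 ± 0.36 with MIF (adjusted p = 1.00) and -0.33 ± 0.36 with sCD74 (adjusted p = 1.00). With sCD74, Clec4n was lower in 3 of 3 pairs, by values of -0.29, -0.21 and -0.48, a pattern that 13% of all genes had. The fitted difference with sCD74 was -0.11 ± 0.20 with the macrophage level as a covariate. With 1 array left out it ran between -0.67 without carrier replicate 1 and -0.00067 without sCD74 replicate 1.

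The departures from additive effects were 0.72 ± 0.50 for Clec4d and 0.50 ± 0.51 for Clec4n (SE, limma adjusted p = 1.00 for both). The replicate block, which pairs the arrays, gave them as 0.72 ± 0.27 and 0.50 ± 0.23 (SE), and neither passed after adjustment. With 1 array left out they ran between 0.35 and 1.02 for Clec4d and between 0.18 and 0.85 for Clec4n, and with the macrophage level as a covariate they were 0.46 ± 0.29 and 0.23 ± 0.28. Setting co-treatment against either single treatment, Clec4d and Clec4n were each higher in 3 of 3 pairs. The shares of all genes with that pattern were 12.2% against MIF and 14.8% against sCD74. Acod1 and Clec4e had it too, but they were selected on these arrays, so nothing is read from that. With the macrophage level taken off each array, Clec4d was still higher in 3 of 3 pairs. Clec4n was not, with -0.02 against MIF and -0.02 against sCD74 in replicate 2. For Clec4d the differences of co-treatment from MIF were 0.55, 0.41 and 0.26, and those of Clec4n were 0.18, 0.27 and 0.07.

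**Figure D2:**
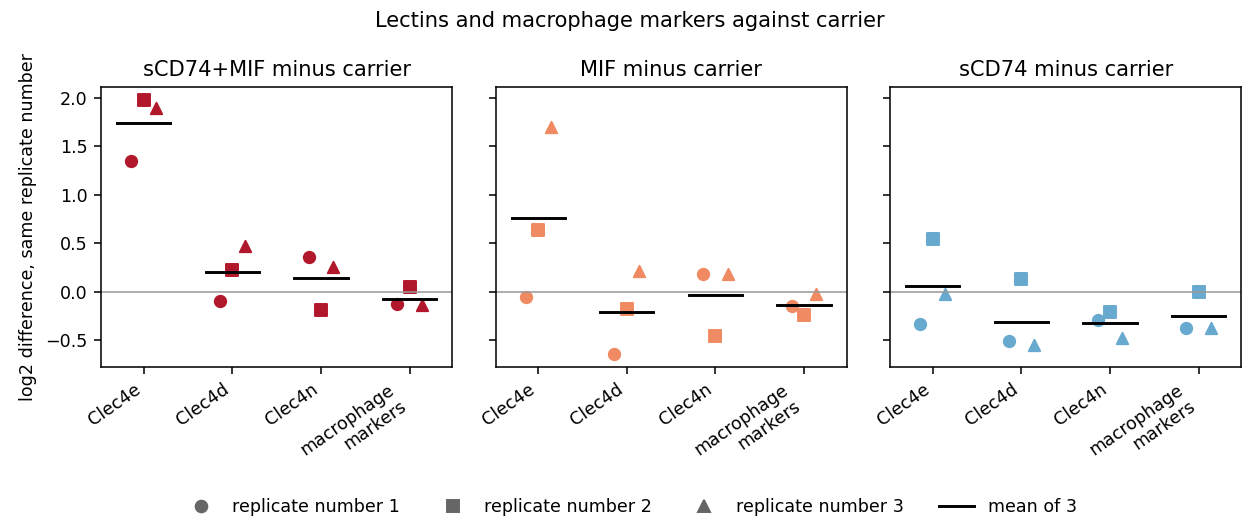
Log2 difference from the carrier array of the same replicate number (vertical axis) for Clec4e, Clec4d, Clec4n and the mean of 22 macrophage markers with both proteins, MIF and sCD74, with 1 point per replicate number and the mean of 3 as a bar. The 3 Clec4e points with both proteins lie between 1.35 and 1.98, and the 3 macrophage points in that panel lie between -0.14 and 0.05.

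The macrophage level of an array, the mean log2 value of the 22 measured macrophage markers, averaged 12.71 ± 0.57 with both proteins, 12.65 ± 0.46 with MIF, 12.54 ± 0.67 with sCD74 and 12.79 ± 0.48 with carrier (SD, n = 3 each). By replicate it was 12.14, 13.28 and 12.72 with both proteins, 12.12, 12.99 and 12.83 with MIF, 11.90, 13.23 and 12.48 with sCD74, and 12.27, 13.23 and 12.86 with carrier. The co-treated arrays differed from their carrier arrays by -0.13, 0.05 and -0.14. Of the 22 markers, 7 were higher and 15 lower with co-treatment, and their median log2 difference was -0.10, against 0.0014 over all genes, with 0 called in limma's fit.

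Taking the macrophage level off each array left Clec4e at -1.20 ± 0.30 with both proteins, -2.12 ± 0.85 with MIF, -2.70 ± 0.19 with sCD74 and -3.02 ± 0.13 with carrier (SD, n = 3 each). The difference of co-treatment from carrier on that scale was 1.81, close to the 1.74 without the subtraction. With the macrophage level as a covariate in the fit it was 1.84 ± 0.30 (SE), and that of MIF alone was 0.94 ± 0.30. The replicate block with no macrophage term gave 1.74 ± 0.28 and 0.76 ± 0.28 (SE), so the smaller SE is not particular to the macrophage level. For sCD74 alone against carrier, Clec4e differed within replicate numbers by 0.04, 0.54 and 0.36 with the macrophage level taken off. That level as a covariate gave 0.39 ± 0.30 (SE), and 0.64 ± 0.30 (SE) with the replicate block added. Neither passed limma's test after adjustment. For Clec4d the subtraction left -0.51 ± 0.39 with both proteins, -0.85 ± 0.32 with MIF, -0.84 ± 0.12 with sCD74 and -0.79 ± 0.26 with carrier. For Clec4n it left -0.97 ± 0.41, -1.08 ± 0.30, -1.26 ± 0.14 and -1.19 ± 0.18 in that order of groups. The ranges of these last 2 genes still overlapped between co-treatment and carrier.

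**Figure D3:**
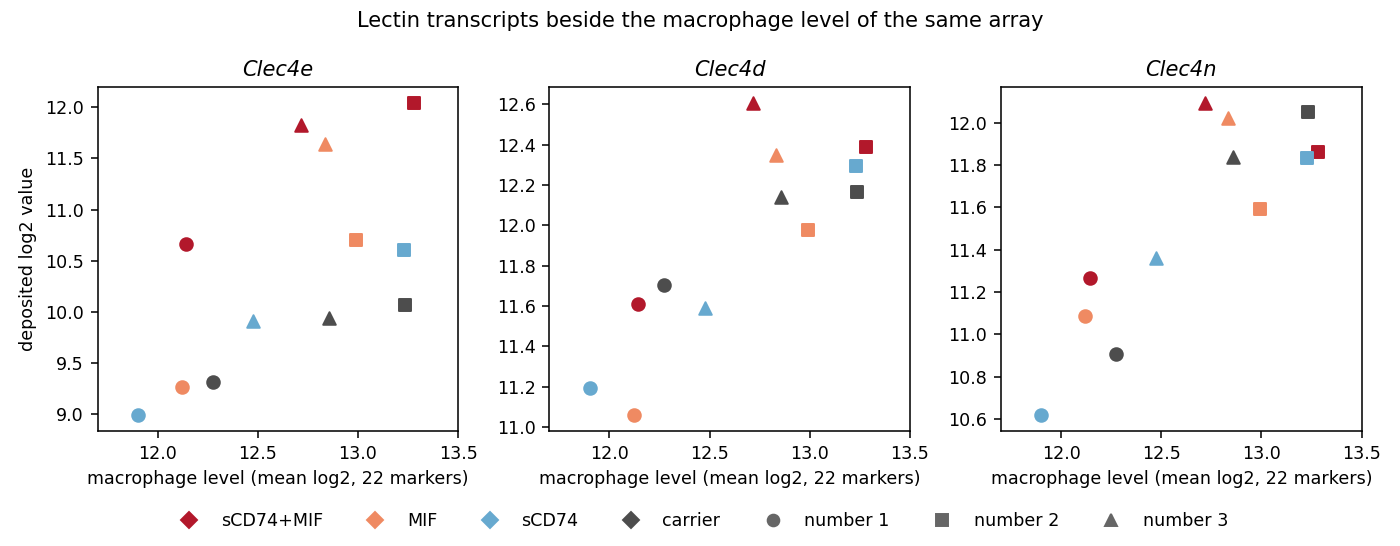
Deposited log2 value of Clec4e, Clec4d and Clec4n (vertical axes, a scale of its own in each panel) against the macrophage level of the same array (horizontal axis, mean log2 of 22 markers), with colour for the group and shape for the replicate number. The Clec4e points with both proteins stand above the carrier points of the same replicate number by 1.35 to 1.98 at like macrophage levels, and replicate number 1 lies at the left of each panel, between 11.90 and 12.27.

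All 4 measured genes were lower in replicate number 1 than in numbers 2 and 3, a contrast that had no part in their choice. Clec4e averaged 9.56 ± 0.75 in number 1, 10.85 ± 0.84 in number 2 and 10.83 ± 1.05 in number 3 (SD, n = 4 each). Clec4d averaged 11.39 ± 0.31, 12.21 ± 0.18 and 12.17 ± 0.43, and Clec4n 10.97 ± 0.28, 11.83 ± 0.19 and 11.83 ± 0.33, in that order of numbers. In limma's additive fit of group and number, the differences of number 1 from the mean of numbers 2 and 3 were -1.29 ± 0.21 for Clec4e (SE, adjusted p = 0.00112), -0.80 ± 0.14 for Clec4d (adjusted p = 0.00229) and -0.86 ± 0.12 for Clec4n (adjusted p = 0.000470). Acod1 passed in the same direction (adjusted p = 0.00234), with all 4 of its arrays in number 1 below background. The arrays of a number share a title code and deviated together, so these SE and p-values measure the spread within numbers. They do not measure the spread between numbers, of which this contrast sets 1 against 2. Of all genes, 16.4% passed in this contrast, 9.39% as lower and 7.03% as higher. In the fit on genes above background, 19.4% passed as lower and 12.7% as higher.

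The macrophage level moved with the same contrast. It was 12.11 ± 0.15 in number 1, 13.18 ± 0.13 in number 2 and 12.72 ± 0.17 in number 3 (SD, n = 4 each). Of the 22 markers, 20 passed as lower and 1, Lyve1, as higher, beside 9.39% and 7.03% of all genes. Their median difference was -0.82 against 0.02 over all genes. Endothelial markers went the other way, with 8 of 10 passing as higher, 1 as lower and a median of 1.09. Of the remaining marker lists, 3 of 8 cardiomyocyte, 2 of 13 fibroblast, 2 of 13 neutrophil and monocyte, 1 of 7 dendritic and 0 of 6 lymphocyte genes passed as higher, and 1 neutrophil and monocyte gene as lower. With the macrophage level as a covariate no member passed, and 12 genes passed in all. The macrophage levels of the 3 numbers did not overlap, so level and number cannot be told apart here. Between numbers 3 and 2, where 1.15% of genes passed, no member did, and the differences were -0.02 ± 0.24 for Clec4e, -0.03 ± 0.17 for Clec4d and -0.01 ± 0.14 for Clec4n (SE, limma adjusted p = 0.979, 0.953 and 0.992).

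Of 13 measured signalling genes of these receptors, 7 passed as lower in number 1 and 0 as higher, beside 9.39% and 7.03% of all genes, and the other 6 did not pass. These include the adaptor Fcer1g (-1.04), the kinase Syk (-0.87), and Vav1 (-1.37), an exchange factor of blood cells. The phosphatase Ptpn6, which restrains such signalling, differed by -2.21. In co-treatment against carrier, 4 of the 13 were higher and 9 lower, with a median of -0.03 and 0 called. In all MIF cultures against all cultures without MIF, 7 were higher, with a median of 0.0013 against 0.0077 over all genes, and 0 were called. The members with the smallest p there were Malt1, the paracaspase of the Card9 complex (0.31 ± 0.13, SE), the kinase Src (0.21 ± 0.13), Card9 (0.10 ± 0.10) and Vav3 (-0.08 ± 0.12).

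Among other C-type lectin receptors, in number 1, 8 of 18 passed as lower and 3 as higher, beside 9.39% and 7.03% of all genes. The 8 include Clec12a (-1.35) and Clec4a3 (-1.51), and the 3 include Olr1, the receptor for oxidised lipoproteins (0.88). In co-treatment against carrier 6 were higher and 12 lower, with a median of -0.06. In MIF cultures 10 of the 18 were higher, with a median of 0.010 and 0 called. Of the 18, 7 had means below background, and Mrc1 is also on the macrophage list. The members with the smallest p were Olr1 (0.65 ± 0.34), the activation marker Cd69 (0.38 ± 0.24), Clec4b2 (-0.18 ± 0.10) and Klrb1b (-0.33 ± 0.20), of which the last 2 were above background on no array and Cd69 on 5.

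**Figure D4:**
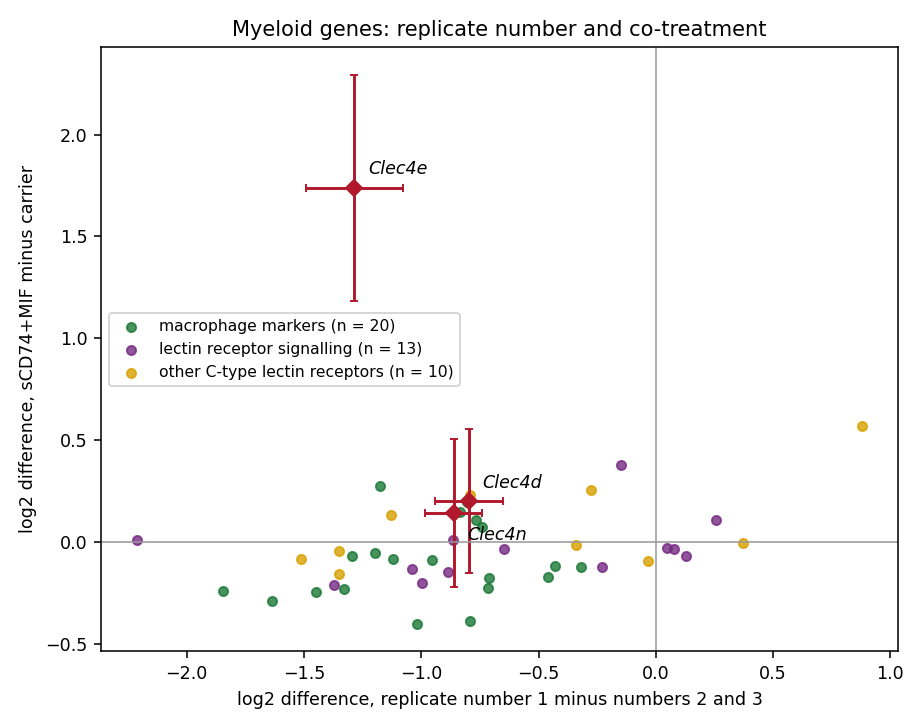
Log2 difference of co-treatment from carrier (vertical axis) against that of replicate number 1 from numbers 2 and 3 (horizontal axis) for Clec4e, Clec4d and Clec4n, with bars of 1 SE, and for macrophage markers, lectin receptor signalling genes and other C-type lectin receptors with a mean above background (20, 13 and 10 genes). Mrc1, which is on the macrophage list and the list of other lectins, is drawn only as a macrophage marker. Clec4e stands at 1.74 on the vertical axis, whereas the highest of the other points is Olr1 at 0.57.

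Genes known to be induced together with Acod1 and Clec4e in activated myeloid cells lay mostly above the median gene with MIF. Of 25 measured, 21 were higher in MIF cultures, with a median log2 difference of 0.38 against 0.0077 over all genes, of which 52.5% were higher. With co-treatment against carrier 21 were higher too, with a median of 0.40, and 0 were called in either contrast. The members with the smallest p in MIF cultures were Nfkbia, the NF-kappaB inhibitor (0.61 ± 0.15, SE), the superoxide dismutase Sod2 (0.48 ± 0.14), the ubiquitin-editing inhibitor Tnfaip3 (0.67 ± 0.24) and the interleukin-1 receptor antagonist Il1rn (0.42 ± 0.15). Nfkbia exceeded carrier by 0.71, 0.50 and 0.68 in the co-treated arrays of the 3 replicate numbers. In number 1 this list did not go one way, with 6 passing as higher and 8 as lower, beside 7.03% and 9.39% of all genes. The list was drawn up with earlier results of these arrays known, so its direction is not independent evidence, and 5 of the 25 had means below background.

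The genes listed around itaconate and the tricarboxylic acid cycle showed small differences. Most encode enzymes, but the list also names Slc25a1, Nfe2l2, Keap1 and Atf3, which do not. Of 23 measured, 15 were higher in MIF cultures, with a median of 0.030 and 0 called, and 17 with co-treatment, with a median of 0.07 and 0 called. The members with the smallest p in MIF cultures were the citrate carrier Slc25a1 (0.15 ± 0.08, SE), the isocitrate dehydrogenase subunits Idh3g (0.17 ± 0.09) and Idh3a (0.20 ± 0.11), and malate dehydrogenase Mdh2 (0.17 ± 0.10). In number 1, 7 of the 23 passed as lower and 0 as higher, beside 9.39% and 7.03% of all genes. In the fit on genes above background those shares were 19.4% and 12.7%. Among the 7 is the subunit Sdhb (-0.44) of succinate dehydrogenase, the enzyme that itaconate is known to inhibit. Slc25a1 exceeded carrier by 0.22, 0.14 and 0.37 in the co-treated arrays of the 3 replicate numbers.

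The genes most alike to each member were sought over the 12 arrays among 11290 genes with means above background, by Pearson's r after the mean of each replicate number was taken off. The arrays share treatments, so r describes these arrays only. The highest r among 11290 genes over 12 arrays can be large from the search alone. For Clec4e they were the chemokine Cxcl16 (r = 0.97), Med27, Syngr2, Mndal and Dram1 (r = 0.94 to 0.95). Cxcl16 exceeded carrier by 0.22, 0.41 and 0.58 in the co-treated arrays. For Acod1 they were the interferon-inducible genes Gbp2 (r = 0.94), Ddx58, Isg15 and Oasl2, and Dram1 (r = 0.91 to 0.92). Gbp2 exceeded carrier by 0.75, 1.51 and 2.16. Acod1 and Clec4e were selected on a rise with MIF in these arrays, so a search for their pattern favours genes that rise there. Nothing is read from these 2 lists. Acod1 also lay below background on most arrays. Before the number means were taken off, Dram1 had r = -0.02 with Clec4e and 0.02 with Acod1. For the other genes named it was 0.78 to 0.97.

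Clec4d and Clec4n were most like other genes. For Clec4d these were Dnaaf5 (r = 0.96), Llph, Hsbp1, Txndc17 and the chemokine receptor Ccr3 (r = 0.93 to 0.96). Before the number means were taken off, r was -0.28 for Dnaaf5 and 0.76 to 0.96 for the others. Dnaaf5 (mean 8.38) and Ccr3 (mean 7.76) lay near background. For Clec4n they were the lysosomal membrane gene Glmp (r = 0.95), Uchl3, Ndufb3, Cap1 and Sec11c (r = 0.94). On the same measure r was 0.89 for Acod1 with Clec4e. Both were picked for a rise on these same arrays, so nothing is read from that value. Between the lectins r was 0.69 for Clec4e with Clec4d, 0.69 for Clec4d with Clec4n and 0.58 for Clec4e with Clec4n. Acod1 with Clec4d gave 0.41, and Acod1 with Clec4n 0.27. With the macrophage level, r was -0.01 for Acod1, 0.32 for Clec4e, 0.70 for Clec4d and 0.72 for Clec4n. Taking off the number means removes the differences between numbers, where the macrophage level varied most. Acod1 was also below background on most arrays, so its r says little about macrophage content.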

How the data were processed

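Biotin-labelled cDNA from total RNA was hybridised to Affymetrix whole-transcript arrays, per the labels' protocols. The deposited log2 values were made with RMA, per the submitters' processing notes, which also name Affymetrix Expression Console and Transcriptome Analysis Console without versions. They were used as deposited. No genome build for the probe sets is named in those notes. Of 28846 probe sets, 6640 were controls. Of the other 22206, 19572 had 1 symbol, 0 several and 2634 none. Keeping the probe set with the highest mean for each symbol left 19505 genes.

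limma 3.58.1 in R 4.3.3 fitted 4 group means over 12 arrays (no trend, not robust), or group and replicate number for contrasts between numbers, with a two-sided test and Benjamini-Hochberg adjustment at 0.05 over all genes. The fit was tested on simulated data. The number of arrays limits the precision. Arrays with the same replicate number share a title code and deviated together (r over genes 0.097 to 0.647 in 18 pairs, against -0.544 to 0.175 in 36 pairs of other numbers), so the numbers pair the samples.

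The members, the 4 gene lists (lectin receptor signalling, other C-type lectin receptors, itaconate and tricarboxylic acid cycle, genes induced in activated myeloid cells) and the 7 marker lists were chosen with earlier results of these data known. From each gene list the 4 members with the smallest p in MIF cultures are named, from the macrophage list the 4 with the highest mean, and for each member the 5 genes most alike. Other genes were named after their values were seen. Start sequences are RefSeq's. Clec4n had no start sequence in that table. Alternatives were the replicate block, an intensity trend with robust variance, centring, quantile normalization, all probe sets, genes above background, the macrophage level as a covariate, and arrays left out. The signal over background as a covariate was added after seeing the data.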

Additional observations from a re-analysis of the deposited data

Results flagged for a closer look

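Clec4n, the gene of Dectin-2, had differences with sCD74 of opposite sign in the presence and absence of MIF. With MIF present, sCD74 gave log2 differences of 0.18, 0.27 and 0.07 in replicates 1, 2 and 3. Without MIF it gave -0.29, -0.21 and -0.48. All 3 pairs with MIF were above 0 and all 3 without MIF below it. The difference between the mean effects was 0.50 ± 0.51 (SE) and did not pass limma's test of departure from additivity (adjusted p = 1.00). With the replicate block alone it was 0.50 ± 0.23 (SE). With an intensity trend and robust variance added to the block it was 0.50 ± 0.21 (SE). Neither passed after adjustment. The macrophage level of the sCD74 arrays differed from carrier by -0.37, -0.01 and -0.38, and that of co-treated arrays from MIF by 0.02, 0.29 and -0.12. With the macrophage level taken off each array, the effects of sCD74 were 0.16, -0.02 and 0.19 with MIF and 0.08, -0.21 and -0.10 without it, so neither set was of 1 sign. With that level as a covariate the departure was 0.23 ± 0.28 (SE), and 0.16 ± 0.27 with the replicate block added (limma adjusted p = 1.00 for both). Groups of 3 arrays were not tested for outliers.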

How the results depend on the processing

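Of 672 recomputed values of single members, 618 kept their direction and 54 turned sign, and no value that turned passed its test. All 4 measured members lost their call in number 1 with the macrophage covariate, and with replicate block, trend and robust variance Acod1 and Clec4e passed for co-treatment and Clec4e for MIF cultures, contrasts on which they were selected. No other recomputed value of a member changed its side of the threshold. For co-treatment, MIF and MIF cultures, neither Clec4e nor Acod1 turned sign in any alternative run. Both were selected on these contrasts in the same arrays, so nothing is read from the kept sign. The paired fit (replicate block) gave 1 called gene for MIF cultures, and with trend and robust variance the counts were 6 for co-treatment, 1 for MIF and 3 for MIF cultures, against 0 in each without these settings. The macrophage covariate left 12 genes for number 1 and 8 for number 3 against number 2, where macrophage levels did not overlap between numbers. The contrast of numbers 3 and 2 also gave 734 genes with trend and robust variance, 540 among genes above background and 78 with the signal covariate, against 224. Leaving out 1 array at a time gave 0 to 1 genes for MIF cultures (Ccl7, without MIF replicate 1), 2079 (without sCD74 replicate 1) to 3063 for number 1, and 59 (without sCD74 replicate 2) to 227 for number 3 against number 2. The causes were not tested.

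Other values that turned sign, in log2, were as follows. With the macrophage covariate, Clec4n was 0.086 for MIF and 0.0031 for sCD74 cultures, and Acod1 -0.25 for the departure from additivity. For number 1 that covariate gave 0.66 for Clec4e, 0.34 for Clec4d and 0.032 for Clec4n, and for number 3 against number 2 it gave 1.04, 0.59 and 0.49. With the replicate block added to it, Clec4n was 0.12 for MIF and 0.023 for sCD74 cultures, Clec4d 0.032 for sCD74, and Acod1 -0.27 for the departure. The signal covariate gave -0.076 for Clec4n with co-treatment and -0.0032 for Clec4d in MIF cultures, and 0.059, 0.042 and 0.12 for Clec4e, Clec4d and Clec4n in number 3 against number 2. Without the 4 arrays of number 1, Clec4d was 0.011 for MIF and Acod1 -0.69 for the departure. Centring gave 0.015 for Clec4n in number 3 against number 2.

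With 1 array left out, Clec4d ran between -0.0029 and 0.50 for co-treatment, -0.48 and 0.16 for MIF and -0.14 and 0.20 for sCD74 cultures. Clec4n ran between -0.20 and 0.38, -0.38 and 0.21, and -0.25 and 0.087 in the same comparisons. Clec4e ran between -0.32 and 0.49 for sCD74, and Acod1 between -0.52 and 0.60 for the departure. In number 3 against number 2 the ranges were -0.37 to 0.14 for Clec4e, -0.19 to 0.14 for Clec4d and -0.14 to 0.13 for Clec4n. Acod1 lay above background on 3 arrays by the negative control median and on 0 by its 95th percentile, and Clec4e on 12 and 3.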
